A study of Mus musculus with 2 samples.

Results

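Cdx2, Eomes, Elf5, Tfap2a, Tfap2c, Tead4, Cebpa, Hand1 and Esx1 are transcription factors of the trophectoderm and its trophoblast descendants that lie outside the GATA family. They were taken by name, as 9 of the 22802 gene symbols with a count in either of 2 single-cell RNA libraries, and all 9 had counts. The blastocyst library holds dissociated whole B6C3F1 mouse embryos of embryonic day 4.5. The embryoid library holds aggregates of embryonic stem (ES) cells from the Lifeact-RFPRuby mouse strain and XTE cells, which were reprogrammed from ES cells carrying Gata6-H2B:Venus and kept in a medium that contained CHIR99021, BMP4, Fgf4, heparin and Activin; the ES cells had been grown with PD0325901, CHIR99021 and Lif. For each preparation, 10000 ES cells were seeded with 50000 to 80000 XTE cells for 48 h in AggreWell plates and then moved for 48 h to cell repellent plates, and 6000 cells entered each library. The labels do not tie a cell barcode to the ES or the XTE source, nor is the number of pooled embryos or aggregates known from them.

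The trophectoderm is the outer epithelium of the blastocyst and founds the placenta. Tead4, with its coactivator Yap1, acts in outer cells upstream of Cdx2; Cdx2, Eomes and Elf5 sustain the multipotent trophoblast state, and the AP-2 factors Tfap2a and Tfap2c act alongside them. Hand1 and Esx1 are better known from later trophoblast, and Cebpa acts in several epithelia and in the placenta.

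Cells were grouped by clusters that were named from marker genes, with the 9 genes kept out of both the markers and the genes used for clustering. The blastocyst library gave 376 trophectoderm-like (TE-like) cells with 8605.5 UMIs in the median cell, 446 primitive endoderm-like (PrE-like) cells with 9398 and 258 epiblast-like (EPI-like) cells with 9864.5. UMIs are unique molecular identifiers, each counting 1 captured RNA molecule. In TE-like cells 14 of 14 trophectoderm markers stood at 20 CPM (counts per 1000000 UMIs of the group) or more, against 4 in PrE-like and 4 in EPI-like cells. The clusters were named from these same markers, so the counts describe the groups and do not test the names. TE-like cells also had 4 of 16 primitive endoderm markers and 5 of 14 epiblast markers at that level. The embryoid library gave 3918 PrE-like cells (median 4965 UMIs), 107 EPI-like cells (6385) and 104 cells (3332) named FIB-like from markers of fibroblasts and extraembryonic mesoderm. Its clusters 2, 6 and 11 stayed unnamed, with 775, 335 and 89 cells. No embryoid cluster took the name TE-like at the main settings. Cluster 11 would have taken it there but for its median of 0.197% mitochondrial UMIs, under the minimum set for naming. It had 7 trophectoderm markers and 12 primitive endoderm markers high. At clustering resolution 0.5, 83 of its 89 cells formed a cluster with 7 and 13 high, for which the class was PrE-like. That cluster stayed unnamed because its leading genes held more markers of another class. With 1 library per group there is no replicate error and no test. All intervals are exact 95% intervals that cover counting error only. The limit given beside a count of 0 is instead 3 counts of the total, and it limits cells with a UMI, not cells that express the gene. A difference between embryoid and embryo is also one between 2 libraries, and these cannot be told apart.

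Within the blastocyst, Cdx2, Elf5 and Cebpa were the most sharply divided between the lineages. Cdx2, the caudal homeobox factor of the trophectoderm, stood at 294 CPM in TE-like cells (interval 277 to 312), at 0.486 CPM in PrE-like cells (2 UMIs) and at 1.52 CPM in EPI-like cells (4 UMIs). A Cdx2 UMI was found in 78.2% of TE-like cells, in 0.448% of PrE-like and in 1.55% of EPI-like cells. Elf5, an ETS factor of trophoblast stem cells, stood at 228 CPM in TE-like cells (212 to 244), at 0.243 CPM in PrE-like cells (1 UMI) and at 1.52 CPM in EPI-like cells (4 UMIs). It was found in 68.1% of TE-like cells. Cebpa, a basic leucine zipper factor, stood at 148 CPM in TE-like cells (135.5 to 161) and was found in 62.2% of them. It had 4 UMIs in PrE-like cells and 0 in all 258 EPI-like cells, which allows a share of cells with a UMI of up to 1.16%. Its level in TE-like cells was at least 130-fold higher than the floor of 3 UMIs over the EPI-like group. The groups in which these 3 genes were nearly absent had larger median depths than the TE-like group.

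Thinning each cell to 3000 UMIs, which left out 29 TE-like, 75 PrE-like and 22 EPI-like cells, brought the TE-like shares to 54.8% for Cdx2, 39.5% for Elf5 and 34.6% for Cebpa. The highest thinned share of any of these genes outside the TE-like group was 1.27%, for Cdx2 in EPI-like cells.

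The sequences just before the RefSeq start sites of these 3 genes are shown because the genes share the sharpest restriction to TE-like cells. They come from RefSeq (GRCm38.p6), read 5′ to 3′ on the gene's own strand, and leave out bases inside an annotated exon of the gene. The stretches are chr5:147307271-147307499 on the minus strand for Cdx2, chr2:103423818-103424061 on the plus strand for Elf5 at the more downstream of its RefSeq starts in the table, and chr7:35119043-35119292 on the plus strand for Cebpa. Capitals mark a match to any of 5 motifs searched on both strands. The TEAD motif was GGAATG and the AP-2 motif was GCCNNNGGC. The GATA motif searched was AGATAA, while for CDX factors it was CAATAAA, and for C/EBP factors it was TTGCNNAA.
Cdx2: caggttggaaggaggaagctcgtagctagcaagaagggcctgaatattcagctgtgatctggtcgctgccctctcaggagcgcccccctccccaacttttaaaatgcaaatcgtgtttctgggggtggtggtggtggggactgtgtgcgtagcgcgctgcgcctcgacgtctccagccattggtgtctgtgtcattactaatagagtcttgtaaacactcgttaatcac
Elf5: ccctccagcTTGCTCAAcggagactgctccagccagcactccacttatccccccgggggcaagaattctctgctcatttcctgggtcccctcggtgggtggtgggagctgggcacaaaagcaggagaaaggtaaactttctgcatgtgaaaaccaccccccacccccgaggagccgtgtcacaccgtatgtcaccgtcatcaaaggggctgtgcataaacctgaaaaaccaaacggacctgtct
Cebpa: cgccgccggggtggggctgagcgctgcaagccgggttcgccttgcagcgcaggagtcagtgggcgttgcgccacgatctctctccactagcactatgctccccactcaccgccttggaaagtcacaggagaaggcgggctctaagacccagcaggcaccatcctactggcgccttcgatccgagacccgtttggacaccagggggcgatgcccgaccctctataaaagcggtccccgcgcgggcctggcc
The capitals in Elf5 are a C/EBP motif that begins 241 bases before the start site. Such a motif occurs in 10.8% of 32851 RefSeq promoters of 300 bases, so its presence in a single promoter describes the sequence and no more. In the full 300-base windows, Cdx2 also held an AP-2 motif, which 16.6% of promoters hold, beginning 16 bases before its start. The window of the upstream Elf5 start held a TEAD motif beginning 173 bases before it, which 14.7% of promoters hold, and a C/EBP motif 235 bases before it. No motif of the 5 was found in the windows of Cebpa, Eomes, Tfap2a or Esx1. Promoters were matched for 6 of the 9 genes; Tfap2c, Tead4 and Hand1 were not matched.

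Eomes and the AP-2 factors were also highest in TE-like cells but were not confined to them. Eomes, a T-box factor needed for trophoblast proliferation, stood at 467 CPM in TE-like cells (445 to 490), 59.1 in PrE-like cells (51.9 to 67.0) and 20.8 in EPI-like cells (15.7 to 27.1). It was found in 86.2%, 34.8% and 18.6% of cells, and in 62.5%, 15.4% and 6.36% at 3000 UMIs, so the order of the lineages was the same at equal depth. Tfap2a stood at 393 CPM in TE-like cells (373 to 414), 6.57 in PrE-like cells and 14.4 in EPI-like cells. Tfap2c stood at 204 CPM in TE-like cells (190 to 220), 1.95 in PrE-like cells (8 UMIs) and 50.8 in EPI-like cells (42.5 to 60.1), where 26.7% of cells had a UMI. For Tfap2c the EPI-like group was therefore the intermediate lineage, whereas for Eomes it was the PrE-like group. The log2 ratio of TE-like over EPI-like cells, with 1 CPM added to each level, was 1.99 for Tfap2c (interval of the count ratio 1.74 to 2.29), 4.42 for Eomes (4.10 to 4.90) and 4.68 for Tfap2a (4.31 to 5.28).

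Tead4, a DNA-binding partner of Yap1, did not separate the lineages. It stood at 107 CPM in TE-like cells (96.1 to 118), 108 in PrE-like cells (98.4 to 119) and 86.4 in EPI-like cells (75.5 to 98.4). A Tead4 UMI was found in 56.1%, 59.4% and 52.7% of cells. The log2 ratio of TE-like over PrE-like cells was -0.02 (-0.22 to 0.18). The median over genes with at least 10 UMIs in each profile was itself at -0.33 in that comparison and at -0.30 for TE-like over EPI-like cells. Relative to those medians Tead4 was 0.30 higher in TE-like than in PrE-like cells and 0.59 higher than in EPI-like cells, so its direction against PrE-like cells depends on the scaling.

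Hand1 and Esx1 were at the limit of detection in the blastocyst. All 4 Hand1 UMIs lay in 1 TE-like cell, and none lay in PrE-like or EPI-like cells. Esx1 had 0 UMIs in TE-like cells, which allows a level of up to 0.836 CPM, and 1 and 3 UMIs in PrE-like and EPI-like cells.

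**Figure D1:**
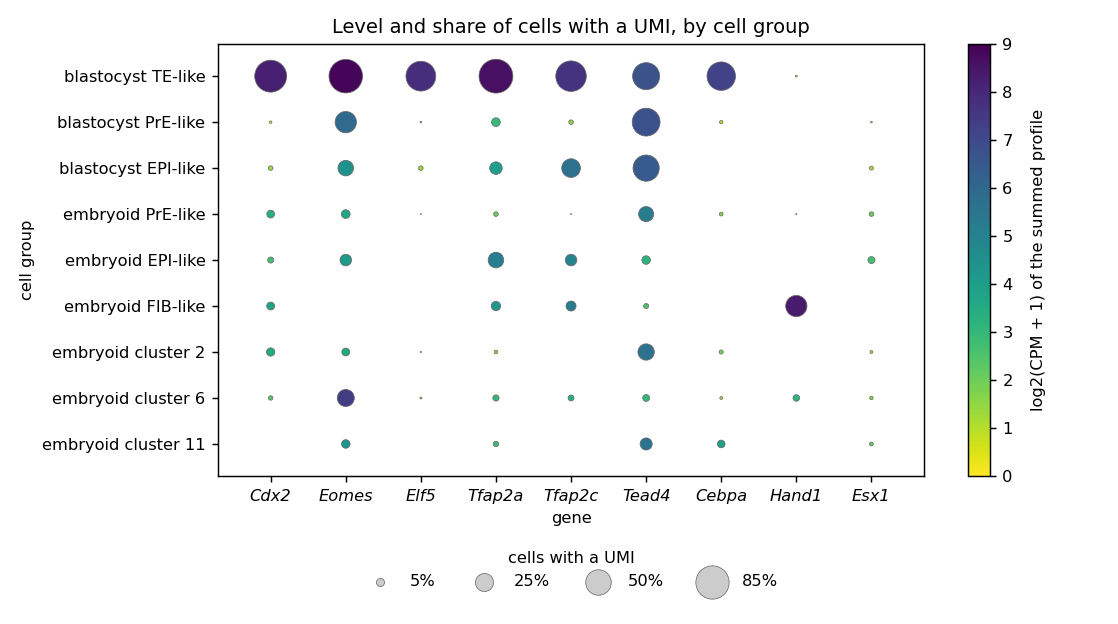
Each circle is a gene (x axis) in a cell group (y axis). Its area is the share of cells with a UMI and its colour is log2(CPM + 1) of the summed profile. Of the 9 genes, 7 have a UMI in 56.1% to 87.8% of blastocyst TE-like cells, Tead4 is as frequent in the other blastocyst lineages, and Hand1 stands out in the embryoid FIB-like cells.

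Counted over the whole set, 6 of the 9 factors had at least 2 times the EPI-like level in TE-like cells, as did 15.2% of 11754 genes with at least 10 UMIs. The same 6 had at least 2 times the PrE-like level, as did 11.4% of genes: Cdx2, Eomes, Elf5, Tfap2a, Tfap2c and Cebpa. Tead4 was the only other gene of the set to pass the minimum of 10 UMIs in these comparisons, and none of these 7 was 2-fold lower (24.7% and 23.6% of genes were). Between PrE-like and EPI-like cells, Eomes was the factor past 2-fold in favour of PrE-like cells (background 15.1%), with a log2 ratio of 1.46 (1.08 to 1.95). Tfap2a and Tfap2c were at least 2-fold lower there (background 12.1%), with log2 ratios of -1.03 (-1.90 to -0.38) and -4.14 (-5.95 to -3.69). With 10 CPM added the value of Tfap2a was -0.56, short of 2-fold.

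The TE-like cells fell into 3 clusters in which the 7 detected genes took different proportions. These clusters share 1 library and were formed on other genes of the same cells, so the differences are a description. Cluster 1 (247 cells, 8365 UMIs in the median cell) had the highest Cdx2, at 354 CPM (331 to 380), with Eomes at 295 and Elf5 at 159. Cluster 4 (87 cells, 7955 UMIs), led by Ctsll3, BC051665 and Krt19, had the highest Eomes at 957 CPM (890 to 1026), Tfap2a at 632 (578 to 689), Tfap2c at 317 (280 to 358) and Cebpa at 272 (237 to 310). It kept Cdx2 at 253 CPM (220 to 290). Cluster 6 (42 cells, 11700.5 UMIs), led by Cald1, Irx3 and S100a6, had Elf5 at 597 CPM (530 to 670) but Cdx2 at 73.3 (51.1 to 102) and Cebpa at 62.8 (42.4 to 89.7). Cluster 4 depended on the settings. At resolution 0.5, 74 of its 87 cells fell into a TE-like cluster of 321 cells with Eomes at 451.5 CPM, Tfap2c at 183 and Cebpa at 163. With at most 10% mitochondrial UMIs, 26 of its cells were kept, and the cluster that held 23 of them had Eomes at 516 CPM.

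Elf5 and Cdx2 thus moved in opposite directions between cluster 6 and cluster 1. The log2 ratio of cluster 6 over cluster 1 was 1.90 for Elf5 (1.68 to 2.13) and -2.26 for Cdx2 (-2.81 to -1.79). These were the only 2 of the 7 detected genes past 2-fold, where 8.36% of genes were at least 2-fold higher and 20.1% lower. The median over genes with at least 10 UMIs in each cluster lay 0.16 higher in cluster 6. Relative to it Cebpa, at -0.94 as measured, was also past 2-fold at -1.10. Over genes with at least 10 UMIs in the 2 clusters together the median was -0.09, so this call depends on the genes taken. Against cluster 4, Elf5 was the only 1 of the 7 at least 2-fold higher (1.54, 1.26 to 1.83; background 14.9%), with Tead4 at 0.62 (0.10 to 1.15), and Cdx2, Eomes, Tfap2a and Cebpa were at least 2-fold lower (-2.09 to -1.03; background 18.2%). At 3000 UMIs, Elf5 was found in 83.8% of 37 cells of cluster 6 (68.0 to 93.8) and in 32.0% of 228 cells of cluster 1 (26.0 to 38.5). Cdx2 was found in 21.6% (9.83 to 38.2) and 60.1% (53.4 to 66.5). Clustering at resolution 2.0 returned exactly these 42 cells as a cluster, and at resolution 0.5 they lay in a cluster of 55 cells with Elf5 at 564 CPM and Cdx2 at 60.0. Summed primitive endoderm markers were 121.5 CPM in cluster 6, 1771 in cluster 1 and 1370 in cluster 4, and the median mitochondrial share was 8.05%, 12.3% and 11.3%. The part of these in the differences was not tested. The highest doublet score in cluster 6 was 0.0683, against 0.171 in cluster 1.

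Between clusters 4 and 1, Eomes, Tfap2c and Cebpa were at least 2-fold higher in cluster 4 (background 6.11%), with log2 ratios of 1.69 (1.55 to 1.85), 1.00 (0.77 to 1.24) and 1.15 (0.90 to 1.42). Tfap2a was just under, at 0.93 (0.77 to 1.10). Tead4 varied least, from 81.5 CPM in cluster 4 to 126 in cluster 6. Its log2 ratio was 0.62 (0.10 to 1.15) for cluster 6 over cluster 4 and -0.45 (-0.86 to -0.06) for cluster 4 over cluster 1.

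**Figure D2:**
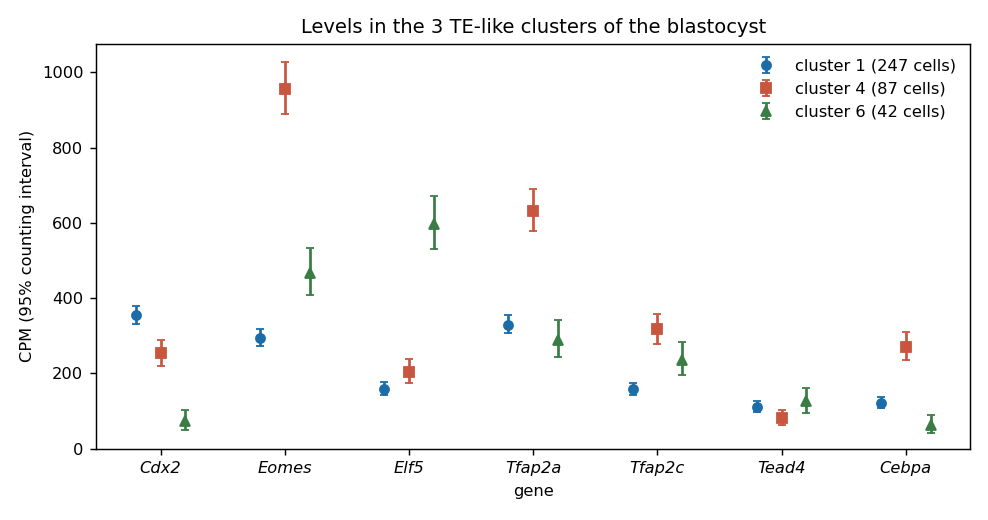
Points give the CPM of 7 genes (x axis) in blastocyst clusters 1, 4 and 6, with exact 95% counting intervals on a linear axis from 0. Elf5 is highest in cluster 6, where Cdx2 is lowest at 73.3 CPM, and Eomes, Tfap2a, Tfap2c and Cebpa are highest in cluster 4.

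The other lineages were also uneven for single genes. Among EPI-like cells, Tfap2c stood at 78.0 CPM in cluster 2 (177 cells, led by Prdm14, Ifitm1 and Nanog) and at 8.67 in cluster 5 (81 cells, led by Lef1, Igfbp2 and Ace). The log2 ratio of cluster 5 over cluster 2 was -3.03 (-4.33 to -2.20). Tead4 was also lower in cluster 5, at 51.1 against 109 CPM. Only 4 genes of the set had at least 10 UMIs in this pair. Of these, 2 were at least 2-fold lower (background 11.4%) and none higher (3.66%). Cluster 5 had the larger median depth, 13662 against 9061 UMIs. Among PrE-like cells, Eomes stood at 84.8 CPM in cluster 3 (68.9 to 103) and 48.9 in cluster 0 (41.2 to 57.6). The set had 3 genes with at least 10 UMIs in these clusters, and none of them differed 2-fold (3.08% of genes were higher and 9.71% lower). The Eomes-positive PrE-like cells had a median of 11060 UMIs and the others 8132.

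Single TE-like cells usually held several of these factors. The median TE-like cell had a UMI of 5 of the 9 genes, and 84.8% of TE-like cells had at least 4. At least 4 were found in 3 of 258 EPI-like cells and in none of the 446 PrE-like cells. At 3000 UMIs per cell, 42.7% of 347 TE-like cells still had at least 4, and no PrE-like or EPI-like cell did. All 7 genes other than Hand1 and Esx1 were found together in 77 TE-like cells, or 20.5%.

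**Figure D3:**
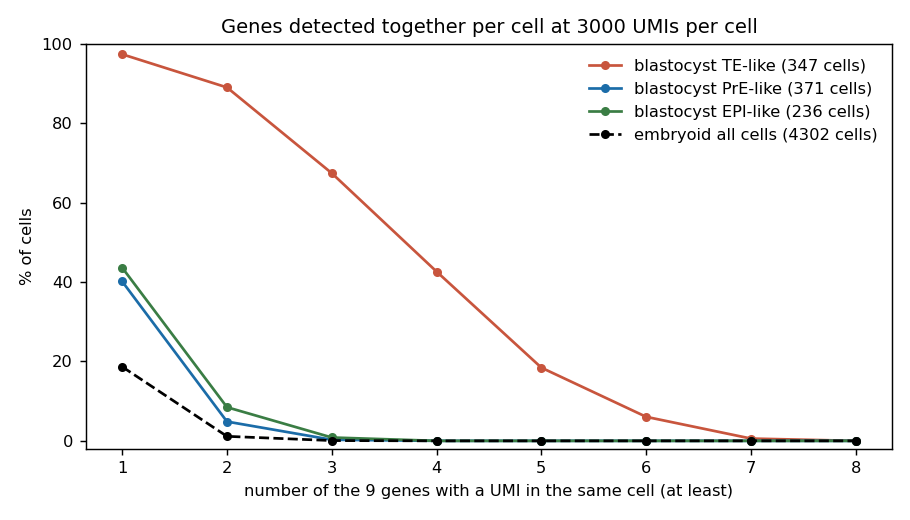
Lines give the percent of cells (y axis) with a UMI of at least the given number of the 9 genes (x axis), after thinning every cell to 3000 UMIs. The TE-like line falls from 97.4% at 1 gene to 42.7% at 4 genes, and the embryoid line reaches 0 at 4 genes.

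Pairs of genes were found together in TE-like cells about as often as their separate shares give. Across the 21 pairs of the 7 detected genes at 3000 UMIs, the observed share of cells with both, divided by the product of the shares, ran from 0.92 for Cdx2 and Elf5 to 1.22 for Tfap2c and Cebpa. Cdx2 and Elf5 were found together in 69 of 347 cells. Elf5 was found in 36.3% of Cdx2-positive cells (29.5 to 43.6) and in 43.3% of Cdx2-negative cells (35.4 to 51.5), and these intervals overlap. Within cluster 1 alone the same ratio for Cdx2 and Elf5 was 1.07, on the other side of 1. Eomes and Tfap2a were found together in 43.2% of cells, against 39.5% from the product. Without thinning all ratios but that of Cdx2 and Eomes (0.999) were above 1. Cells with a UMI of a gene were deeper than cells without (for Elf5, medians of 10750 and 6174 UMIs).

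Correlations of log1p counts per 10000 UMIs across the 376 TE-like cells were weak between members, from -0.18 for Cdx2 and Elf5 to 0.29 for Tfap2a and Cebpa. The cells share 1 library, and the values are a description. Eomes had correlations of 0.24 to 0.25 with Tfap2a, Tfap2c and Cebpa. Within cluster 1 the correlation of Cdx2 and Elf5 was 0.04.

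**Figure D4:**
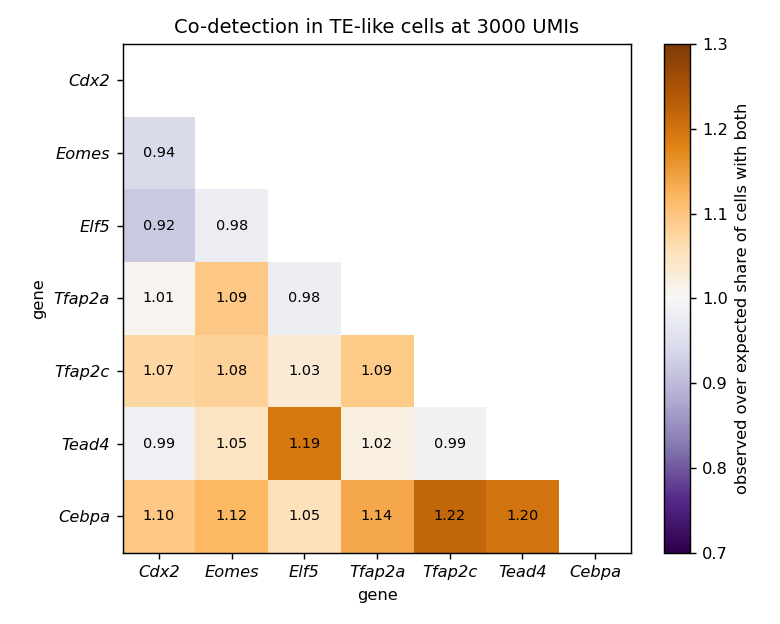
Each square is a pair of genes in the 347 blastocyst TE-like cells thinned to 3000 UMIs, with the observed share of cells with both genes divided by the share expected from the product. Values run from 0.92 (purple) to 1.22 (orange).

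Among 7134 genes found in at least 10% of TE-like cells, those whose counts followed a member most closely across the 376 cells were named where the correlation was 0.3 or more. Elf5 was followed most closely by Psat1 (0.50), Npm1 (0.47) and Ldha (0.46), and Ldha was also the gene with the lowest correlation with Cdx2 (-0.38). Eomes was followed by BC051665 (0.45), B3gnt5 (0.42) and Chka (0.39), and Cdx2 by Enpep (0.38), Crxos1 (0.37) and Dab2 (0.37). Tfap2a was followed by its fellow epithelial factor Elf3 (0.33) and by the glucose transporter Slc2a3 (0.30), and Cebpa by Erf (0.32), Tspan8 (0.31) and B3gnt5 (0.31). No gene reached 0.3 for Tfap2c or Tead4. Across the 19 clusters of both libraries, over 10063 genes, the closest gene was Gpr116 for Cdx2 (0.90), Coro1c for Eomes (0.93), Chrna1 for Elf5 (0.98), Mettl17 for Tfap2a (0.95), Osbpl3 for Tfap2c (0.91), Grtp1 for Tead4 (0.91), Smpdl3a for Cebpa (0.96), Gnao1 for Hand1 (0.96) and Igfbp1 for Esx1 (0.88). Clusters of 1 library share that library.

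Close relatives of the 9 genes were less uniform. Of 24 listed paralogues 22 matched and 14 passed the 10-UMI minimum. Of these, 7 were at least 2-fold higher and 3 lower in TE-like than in EPI-like cells (15.2% and 24.7% of genes were). Their median log2 ratio was 0.96, against -0.30 over all genes that passed the minimum. Against PrE-like cells 3 of 14 were higher and 2 lower (11.4% and 23.6% of genes were). Their median was -0.18, against -0.36 over all genes that passed the minimum. Elf3, an epithelial ETS factor, stood at 852 CPM in TE-like, 452 in PrE-like and 58.4 in EPI-like cells. Tead2 stood at 158, 42.1 and 69.0 CPM and Tead3 at 44.1, 11.7 and 4.55, so these TEAD genes were higher in TE-like cells where Tead4 was level. Cdx1 stood at 20.4, 0 and 7.96 CPM. Tbx3 ran the other way from its fellow T-box gene Eomes, at 73.6, 489 and 406 CPM. The remaining named paralogues were Elf4 (25.1, 26.5 and 7.58), Cebpg (54.9, 37.0 and 24.6) and Cebpz (82.0, 192 and 213).

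Of 28 other listed regulators 27 matched; 13 of the 23 that passed the minimum were at least 2-fold higher and 2 lower in TE-like than in EPI-like cells (median 1.72), where 15.2% and 24.7% of all genes were. Against PrE-like cells 12 of 24 were higher and 4 lower (median 1.01), where 11.4% and 23.6% of all genes were. Without the 3 that served as markers for naming the clusters, the counts were 10 higher and 2 lower of 20 against EPI-like cells (median 1.06), and 9 higher and 4 lower of 21 against PrE-like cells (median 0.68). The GATA factors Gata3 (698, 6.32 and 9.47 CPM in TE-like, PrE-like and EPI-like cells) and Gata2 (383 CPM, 9 UMIs and 10.6 CPM) led, and both are among these markers. The other is Id2, at 1744, 50.6 and 48.1 CPM. Genes that were not markers included the epithelial factors Grhl1 (48.2, 0.730 and 4.17) and Ovol1 (34.0, 2.92 and 0.758), Bhlhe40 (85.3, 8.02 and 8.34) and the FGF receptor Fgfr2 (317, 197 and 3.03). Rbpj, the DNA-binding partner of Notch, was lowest in TE-like cells, at 29.8, 69.1 and 229 CPM.

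In the embryoid library the combination seen in TE-like cells was not detected. None of 5328 embryoid cells had a UMI of 4 or more of the 9 genes, which allows a share of such cells of up to 0.0563%, and the largest number in a cell was 3, in 15 cells. At 3000 UMIs, 0 of 4302 embryoid cells had 4 or more. Elf5 gave 6 UMIs in 5 cells of the whole library, and Tfap2c gave 54 UMIs in 31 cells.

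The embryoid PrE-like cells, the largest embryoid group, held 7 of the 9 genes at least 2-fold below blastocyst TE-like cells (background 11.2% of 14838 genes). Eomes stood at 12.2 CPM against 467, Cdx2 at 8.92 against 294, Cebpa at 2.06 against 148, Tfap2a at 3.07 against 393, Elf5 at 0.183 (4 UMIs) against 228, and Tfap2c at 0.137 (3 UMIs) against 204. Tead4 had the smallest difference of the 7, at 37.7 CPM against 107, a log2 ratio of -1.47 (-1.68 to -1.32). Esx1 was the exception, with 70 UMIs (3.20 CPM), at least 3.83-fold over the 3-UMI floor of the TE-like group (29.1% of genes were at least 2-fold higher). The median over genes with at least 10 UMIs in each profile was 0.28 higher in embryoid PrE-like cells in this comparison. The other regulators had 10 of 25 at least 2-fold lower and 3 higher, or 7 and 3 of 22 without the markers. The median of the 25 was 0.09, against 0.45 over all genes that passed the 10-UMI minimum. Gata3 stood at 0.595 CPM, Grhl2 at 2.43 and Id2 at 153.

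Compared with their own counterpart in the embryo, embryoid PrE-like cells had less Eomes, Tead4 and Tfap2c (3 of 9 at least 2-fold lower, background 11.4%). Eomes stood at 12.2 against 59.1 CPM, 4.86-fold lower, with a count-ratio interval of -2.54 to -2.02 on the log2 scale. Tead4 stood at 37.7 against 108 CPM, a ratio of -1.50 (-1.69 to -1.35). At 3000 UMIs Tead4 was found in 9.94% of embryoid and 27.8% of blastocyst PrE-like cells, and Eomes in 2.87% and 15.4%. Tfap2c rests on 3 and 8 UMIs. Cdx2 (8.92 against 0.486 CPM, 2 UMIs) and Esx1 (3.20 against 0.243 CPM, 1 UMI) were higher (background 17.6%), with count-ratio intervals of 2.33 to 7.25 and 1.19 to 9.04 on the log2 scale. With 10 CPM added in place of 1, neither reached 2-fold. The embryoid share of cells with a Cdx2 UMI was 4.62% (3.98 to 5.32) in PrE-like cells, with 4965 UMIs in the median cell. It was 2.80% (0.582 to 7.97) in EPI-like cells, with 6385 UMIs in the median cell, and 4.81% (1.58 to 10.9) in FIB-like cells. These 2 shares rest on 4 and 5 Cdx2 UMIs. These intervals overlap, and the part of free RNA in these shares was not tested.

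The embryoid EPI-like cells had 14 of 14 epiblast markers, from which they were named, at 20 CPM or more. They also had 10 of 16 primitive endoderm markers at that level (1240 CPM summed), against 5 of 16 in blastocyst EPI-like cells (299.7 CPM). The part of this in the differences that follow was not tested. Only 4 of the 9 genes had at least 10 UMIs in the comparison with blastocyst EPI-like cells, and of these Tead4 differed most. Tead4 stood at 8.40 CPM (6 UMIs in 107 cells; 3.08 to 18.3) against 86.4, a log2 ratio of -3.22 (-4.82 to -2.22). It was the only gene of these 4 at least 2-fold lower (background 12.2%). Tfap2a was higher at 36.4 against 14.4 CPM, a log2 ratio of 1.28 (0.56 to 2.09; background 13.9%), and was under 2-fold, at 0.95, with cells limited to 10% mitochondrial UMIs. Tfap2c stood at 29.4 against 50.8 CPM, a ratio of -0.77 (-1.53 to -0.12). Tfap2a-positive EPI-like cells of the embryoid, 20 of 107, had Nanog at 296 CPM against 116 in the others, at median depths of 7682 and 6231 UMIs; this gene was named after its values were seen.

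Hand1, Eomes and Cdx2 reached their highest embryoid levels in different clusters. Hand1, a basic helix-loop-helix factor of trophoblast giant cells that is also active in extraembryonic mesoderm and heart, stood at 324 CPM in FIB-like cells (271 to 385), with 129 UMIs in 36 of 104 cells. At resolution 0.5 and with cells of at least 3000 UMIs, these cells merged with those of cluster 6 into FIB-like clusters of 439 and 321 cells, in which Hand1 stood at 69.5 and 60.5 CPM and Eomes at 134 and 139. Embryoid PrE-like cells had 5 Hand1 UMIs in 3918 cells. At 3000 UMIs Hand1 was found in 32.8% of 61 FIB-like cells (21.3 to 46.0) and 0.0311% of PrE-like cells. Of the 9 genes, 3 were at least 2-fold higher in FIB-like than in PrE-like cells (background 16.2%): Hand1, Tfap2a at 17.6 CPM (7 UMIs) and Tfap2c at 37.7 CPM (15 UMIs). Another 4 were lower with 1 CPM added (background 18.6%), but only Tead4 had any UMIs there (2, or 5.03 CPM). Eomes, at 0 UMIs, was at least 1.61-fold lower, and for Cebpa and Esx1 the floor of 7.54 CPM lies above the PrE-like level, so no fold is given. FIB-like cells also had the related Hand2 at 158 CPM, Tbx20 at 57.8 and T at 75.4. Among them the Hand1-positive cells had more Hand2 (268 against 100 CPM), Tbx20 (138 against 15.4), Gata6 (450 against 127) and Col1a1 (1581 against 227) than the Hand1-negative cells, whereas T had 0 UMIs in them and 115 CPM in the others. These genes were picked from the lists after their values were seen.

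Eomes was concentrated in embryoid cluster 6, which is led by Slpi, Vim and Fbln2. It stood at 166 CPM there (147 to 187), with 274 UMIs in 75 of 335 cells, against 12.2 CPM in PrE-like cells, a log2 ratio of 3.67 (3.52 to 4.02). At 3000 UMIs it was found in 20.7% of cells (15.9 to 26.1) against 2.87%. No other gene of the set exceeded 10 CPM in cluster 6, where Cdx2 stood at 4.25 and Elf5 at 0.608 (1 UMI). With 1 CPM added, 4 of 9 genes were at least 2-fold higher than in PrE-like cells (background 13.0%), the others being Tfap2a, Tfap2c and Hand1 on 12 to 15 UMIs. Relative to the median over genes with at least 10 UMIs in each profile, Tfap2a did not reach 2-fold. Tead4 was lower, at 7.29 CPM (background 10.1%). The Eomes-positive cells of cluster 6 had Mixl1, a primitive streak gene, at 86.5 CPM against 4.03 in the Eomes-negative cells, and in 21.3% against 1.54% of cells. Of the 7 matched markers of primitive streak or mesoderm, 1 reached 20 CPM in cluster 6 as a whole, Mesp1 was at 0, and the remaining 5 had 0 to 9 UMIs each in the Eomes-positive cells. They had Tbx3 at 245 against 107 CPM and the fibroblast collagens Col1a1 and Col3a1 at 14.8 and 9.89 against 351 and 404 CPM. Median depths were 4697 and 4209 UMIs, and these 4 genes were also named after their values were seen.

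Cdx2 reached its highest embryoid level in cluster 7, a PrE-like cluster of 200 cells led by Nepn, Rbp4 and Apob, at 32.3 CPM (22.0 to 45.9) with 31 UMIs in 28 cells. At resolution 0.5, 194 of these cells fell into a PrE-like cluster of 1240 cells with Cdx2 at 13.1 CPM. The log2 ratio over the other PrE-like cells was 1.91 (1.44 to 2.60; background 5.81%). Esx1 was also past 2-fold, on 7 UMIs and with an interval that spans 0, and Tfap2a was lower on 1 UMI (background 7.49%). The level is below that of blastocyst TE-like cells, 294 CPM, and the cluster had 0 UMIs of Elf5 and Tfap2c. At 3000 UMIs the share with Cdx2 was 6.21% (3.02 to 11.1), against 2.55% of all embryoid PrE-like, 1.00% (0.0253 to 5.45) of EPI-like and 6.56% (1.82 to 15.9) of FIB-like cells. At 1500 UMIs it was 6.12% (3.20 to 10.45) in cluster 7 and 2.97% (0.617 to 8.44) in FIB-like cells, and without thinning 14.0% (9.51 to 19.6) and 4.81%, so the order of these groups depends on the depth. All 12 Eomes UMIs of the cluster lay in 3 cells, and 9 of them in 1 cell. Summed trophectoderm markers were 2164 CPM in cluster 7 and 2160 in cluster 11, against 1103 in embryoid PrE-like cells and 11690 in blastocyst TE-like cells. Summed primitive endoderm markers were 9688 CPM in cluster 7 and 12960 in cluster 11, against 13530 in embryoid PrE-like cells and 1461 in blastocyst TE-like cells. Gata3 was at 0 in cluster 7. Embryoid cluster 11 had 0 UMIs of Cdx2, Elf5, Tfap2c and Hand1, which allows a share of cells with a UMI of up to 3.37% for each at a median depth of 2916 UMIs, with Eomes at 19.4 CPM (6 UMIs) and Tead4 at 45.3 (14 UMIs).

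Tead4 was the most widely detected of the 9 genes in the embryoid, with 1048 UMIs in 875 of 5328 cells. It stood between 24.0 and 54.9 CPM in the PrE-like clusters, at 48.6 in cluster 2 and 45.3 in cluster 11, and at 7.29, 8.40 and 5.03 in cluster 6, EPI-like and FIB-like cells.

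**Figure D5:**
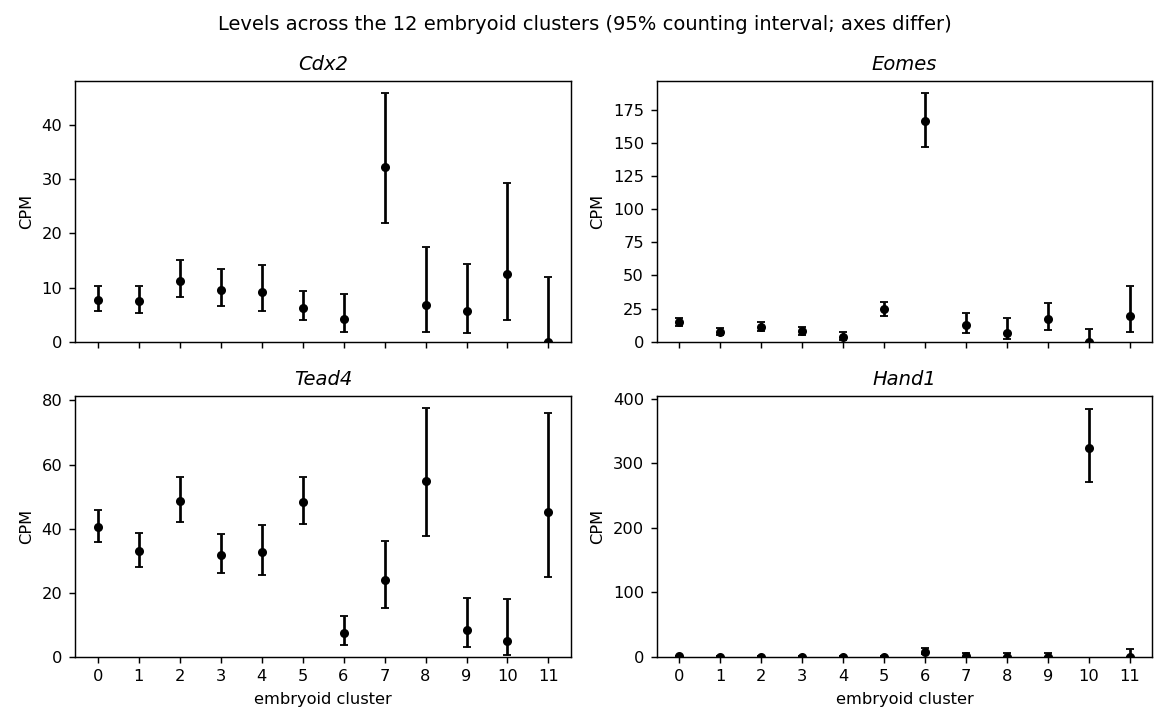
Points give the CPM (y axes, which differ) of Cdx2, Eomes, Tead4 and Hand1 in the 12 embryoid clusters (x axis), with exact 95% counting intervals. Hand1 peaks in cluster 10 (FIB-like) at 324 CPM, Eomes in cluster 6 at 166 and Cdx2 in cluster 7 at 32.3, while Tead4 is lowest in clusters 6, 9 (EPI-like) and 10.

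In the annotation used for positions (GENCODE vM21, GRCm38), the genes lie apart, on chromosomes 2 (Elf5 and Tfap2c), 5, 6, 7, 9, 11, 13 and X. Cdx2 lies at chr5:147300805-147307270, Elf5 at chr2:103411688-103450989, Eomes at chr9:118478212-118486132 and Hand1 at chr11:57828705-57832818. Antisense genes overlap Eomes, Tfap2a and Cebpa, and a pseudogene on the other strand overlaps Tead4. The labels do not say whether counting used strand, so it is not known whether reads of these genes and of their partners were separated.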

How the data were processed

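Each library was made with the BD Rhapsody whole transcriptome kit, per the labels' protocols. The authors deposited raw counts of UMIs per gene symbol and barcode, with 28923930 UMIs in 5546 embryoid barcodes and 11047555 in 1288 blastocyst barcodes; 9 barcodes occur in both. The submitters' processing notes list the build mm10 and, with no role or settings, STAR 2.7.1a, featureCounts 1.6.4, Subread, UMI-tools 1.0.1 and bcl2fastq 2.19.1.403; the rule behind the deposited barcodes is not given in the sources used here.

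Barcodes with at least 1000 UMIs, 500 genes and at most 25% mitochondrial UMIs were kept, and Scrublet calls removed. These were 17 in the blastocyst and 0 in the embryoid, so any doublets remain in the embryoid groups. The filters left 1080 and 5328 cells. Clustering (scanpy 1.11.5, leidenalg 0.10.2; 2000 variable genes, 30 components, 20 neighbours, resolution 1.0) left out the 9 genes and both gene lists. Clusters were named by the class with the most of its markers high, as a share of those that reached 20 CPM in any cluster of the library (high: 20 CPM and 0.333 of the highest cluster; at least 3 markers), unless the 10 leading genes or a mitochondrial share under 0.1 of the median spoke against it. Of 84 markers 74 matched.

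UMIs were summed per group. Ratios add 1 CPM, whereas their intervals use counts with nothing added and need not hold the ratio of a low gene; floors are 3 UMIs over the group. Thinning drew 3000 UMIs per cell. All 9 genes are named; of each list at most 8 genes at 20 CPM and 2-fold apart. Ratios, intervals and thinning were tested on simulated data. The genes, lists and naming rule were chosen with earlier results of these data known.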

Additional observations from a re-analysis of the deposited data

How the results depend on the processing

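No paired analysis was possible because each group is 1 library, and for the same reason no replicate could be left out. Alternatives changed the clustering resolution (0.5 and 2.0), the cell filters (3000 UMIs; 10% mitochondrial; doublets kept), the added level (10 CPM), the scaling, the gene filter, the depth (3000 and 1500 UMIs) and the UMIs that count as detection (2). The counts of 6 factors past 2-fold for TE-like over EPI-like and over PrE-like cells were 6 under every alternative run but that of all genes with a UMI, where both were 7. The 7 lower in embryoid PrE-like than in TE-like cells, and the 0 embryoid cells with 4 or more of the genes, were 7 and 0 under every alternative run. In the comparisons rerun, which were TE-like over EPI-like and PrE-like cells and embryoid over blastocyst groups, no value past 2-fold changed sign. Across genes and alternatives, 6 values fell under 2-fold and 2 rose past it. Ratios between single clusters, those of FIB-like cells and those of PrE-like over EPI-like cells were not rerun under other clusterings or cell filters. Tead4 in TE-like over PrE-like cells went from -0.02 to 0.30 under median-of-ratios scaling, and the co-detection ratio of Cdx2 and Elf5 was 0.92 thinned and 1.01 unthinned. Merging of clusters at resolution 0.5 or under a stricter cell filter is given above for blastocyst clusters 4 and 6, embryoid clusters 6 and 7 and the FIB-like cells. At resolution 0.5, 757 of the 775 cells of embryoid cluster 2 fell into the same PrE-like cluster of 1240 cells as cluster 7. With cells of at least 3000 UMIs, all 43 kept cells of embryoid cluster 11 fell into an unnamed cluster of 639 cells with Cdx2 at 9.61 CPM.

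Of the 2 genes higher in embryoid than in blastocyst PrE-like cells, 0 remained with 10 CPM added. For embryoid over blastocyst EPI-like cells the 1 gene lower became 2 over all genes with a UMI, and the 1 higher became 3 there, 0 with 10 CPM added and 0 with at most 10% mitochondrial UMIs. The 3 lower in embryoid than in blastocyst PrE-like cells were 4 with doublets kept and 2 with 10 CPM added. The 7 genes found in at least 50% of TE-like cells became 3 at 3000 UMIs, 0 at 1500 and 3 with 2 UMIs or more. The share of TE-like cells with at least 4 genes, 84.8%, became 89.0% with cells of at least 3000 UMIs, 42.7% and 11.5% when thinned to 3000 and 1500, and 50.8% with 2 UMIs. With 10 CPM added, the background of TE-like over EPI-like cells fell from 15.2% to 8.37%. Counting embryoid cluster 2 as PrE-like, an alternative chosen after seeing the data, changed no count of genes. At resolution 2.0 and with cells of at least 3000 UMIs, most kept cells of embryoid cluster 7 fell into clusters named TE-like (208 and 127 cells). These clusters held 197 of 200 and 123 of 161 such cells, with Cdx2 at 30.6 and 31.9 CPM and Elf5 at 0. They had 6 and 7 trophectoderm markers high, but 9 and 11 primitive endoderm markers. The name goes by the share of each class's markers, not by these counts. Depth limits the shares: the median embryoid cell had 4768.5 UMIs and the median blastocyst cell 9273.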
